A study of Mus musculus with 24 samples.

Results

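The genes that activate fatty acids to acyl-CoA, that split acyl-CoA again, or that bind it were examined in brain tissue of knockout and wild-type mice. The 42 members are protein-coding genes set by a rule on symbol and type, made with earlier results of these data known. All but Dbi have a mouse symbol that begins with Slc27a (6 genes), Acsl (5), Acsbg (2), Acss (3), Acsm (5), Acsf (2), Acot (13) or Acbd (5). The deposited tables hold 50686 genes, of which 21841 are protein-coding. The antisense gene Acss2os, whose symbol begins with the same letters, is not protein-coding and was left out.

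A fatty acid enters most reactions only after an acyl-CoA synthetase has joined it to coenzyme A (CoA) by a thioester bond, and the synthetases differ in the chain length they accept and in where they sit in the cell. The Slc27a genes encode fatty acid transport proteins, several of which have synthetase activity of their own. Acyl-CoA thioesterases, encoded by the Acot genes, hydrolyse acyl-CoA to the free acid and CoA, while acyl-CoA binding proteins (Dbi and the Acbd genes) hold acyl-CoA in solution or at membranes. In brain this system feeds membrane lipid and myelin synthesis, peroxisomal and mitochondrial oxidation, and the pool of free CoA.

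RNA from tissue labelled as back left brain was sequenced as stranded poly(A) libraries from C57BL/6 mice, and organs were flash frozen. The knockouts (dKO) were Pank1-/-Syn-Pank2-/- animals, named for pantothenate kinase genes whose products act at the start of CoA synthesis, and wild-type mice (WT) served as controls. The sources used here do not give the meaning of Syn, the exons removed or the event from which days were counted. Females and males of either genotype were sampled at day 10 and at day 20, with 3 libraries in each of the 8 groups, 24 in all.

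Of the 24 libraries, 23 held 9.19 M to 44.7 M gene counts (M, counts in units of 1000000). Before scaling between libraries, 1 count stood for 0.0224 to 0.109 per 1000000 gene counts. Levels are given below as CPM (counts per 1000000 gene counts, after scaling between libraries). In dKO male day 10 replicate 3, only 45964 counts fell on genes, 69 of them on 17 members, and it was left out by a minimum of 1000000 gene counts. Replicate numbers were given here in accession order and only name a library. Groups over both sexes therefore had 6 libraries, except dKO at day 10, which had 5. The labels do not state that replicates are separate animals, so that a p-value here reflects only how far these samples scatter, which may be technical. In the 23 libraries the sex-linked genes matched the labels. Pank1 lay at 6.71 to 8.12 CPM in dKO and 19.5 to 26.7 CPM in WT at day 20, and at 7.17 to 8.87 against 20.99 to 24.7 CPM at day 10. Pank2 lay at 38.5 to 46.3 against 52.6 to 61.3 CPM at day 20 and overlapped between genotypes at day 10 (44.6 to 52.1 against 46.3 to 56.3 CPM).

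Members spanned a wide range of levels. Levels of different genes were compared per summed exon length of the gene, as TPM (transcripts per 1000000 transcripts). That length covers all annotated exons, so the order of members may depend on it. Dbi had the highest mean over the 23 libraries, 279 TPM, followed by Acot7 at 195, Acsl3 and Acsbg1 at 135 each and Acsl6 at 74.3. In all, 8 members exceeded 50 TPM. Dbi stood at 347 ± 20.3 TPM in WT at day 10 (SD, n = 6) and at 221 ± 10.5 at day 20, where Acot7 was at 218 ± 14.7, within the spread of Dbi. Acsl3 (153 ± 13.8) and Acsbg1 (146 ± 3.48) were also not separated beyond their spread in WT at day 20. At the other end, Acsbg2, Acsm1, Acsm2, Acsm3, Acsm4 and Acot10 never exceeded 6 counts or 0.219 CPM in a library and were not tested, leaving 36 members, of which 7 had a mean under 1 CPM. The medium-chain synthetases, Acsm1 to Acsm5, lie within 268 kb on chromosome 7, and of these only Acsm5 was tested.

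**Figure D1:**
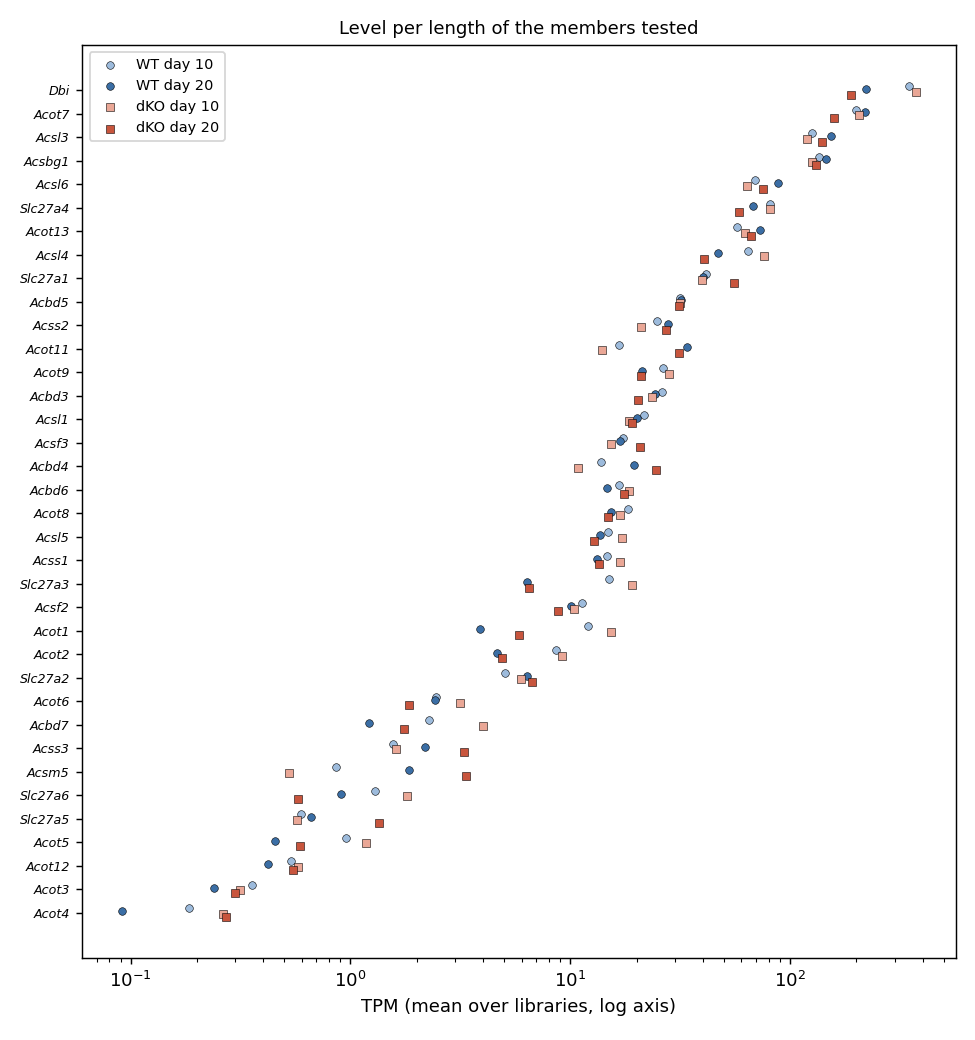
Mean TPM on a log axis (horizontal) of each of the 36 tested members (vertical, in order of the mean over 23 libraries), by genotype and day. Dbi and Acot7 lead, and in WT at day 20 they lie close together, at 221 and 218 TPM.

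At day 20 the members split in both directions. In dKO 9 of 36 were higher than in WT and 7 were lower (edgeR quasi-likelihood test, Benjamini-Hochberg adjusted p under 0.05), so that 16 were called, or 44.4%. Over all 21657 genes tested, 38.8% were called, 19.4% higher and 19.5% lower. The members' median log2 difference was -0.0095 and their median absolute difference 0.21, against -0.00037 and 0.22 over all genes. Members higher in dKO were Slc27a1, Slc27a5, Acss3, Acsm5, Acsf3, Acot1, Acot4, Acbd4 and Acbd6, and members lower were Slc27a4, Acsl4, Acsl6, Acot6, Acot7, Acbd3 and Dbi. In 11 of 36 members the 6 dKO and 6 WT libraries did not overlap (5 higher, 6 lower in dKO), against 20.1% of all genes (9.79% higher, 10.3% lower). At day 10, 2 of 36 members were called, Slc27a3 and Acsl4, both higher in dKO, against 5.79% of all genes (3.88% higher). No member separated the genotypes at day 10 without overlap, against 1.99% of all genes.

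The difference between genotypes changed from day 10 to day 20 for 10 of 36 members by the genotype by day interaction, 4 towards higher and 6 towards lower in dKO, against 28.7% of all genes (13.8% and 14.9%). Slc27a1, Acsm5, Acsf3 and Acbd4 made up the former, and Slc27a4, Slc27a6, Acsl4, Acot6, Acot7 and Dbi the latter. The 2 days share no library, but both sets of differences come from 1 fit with a shared estimate of the spread.

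**Figure D2:**
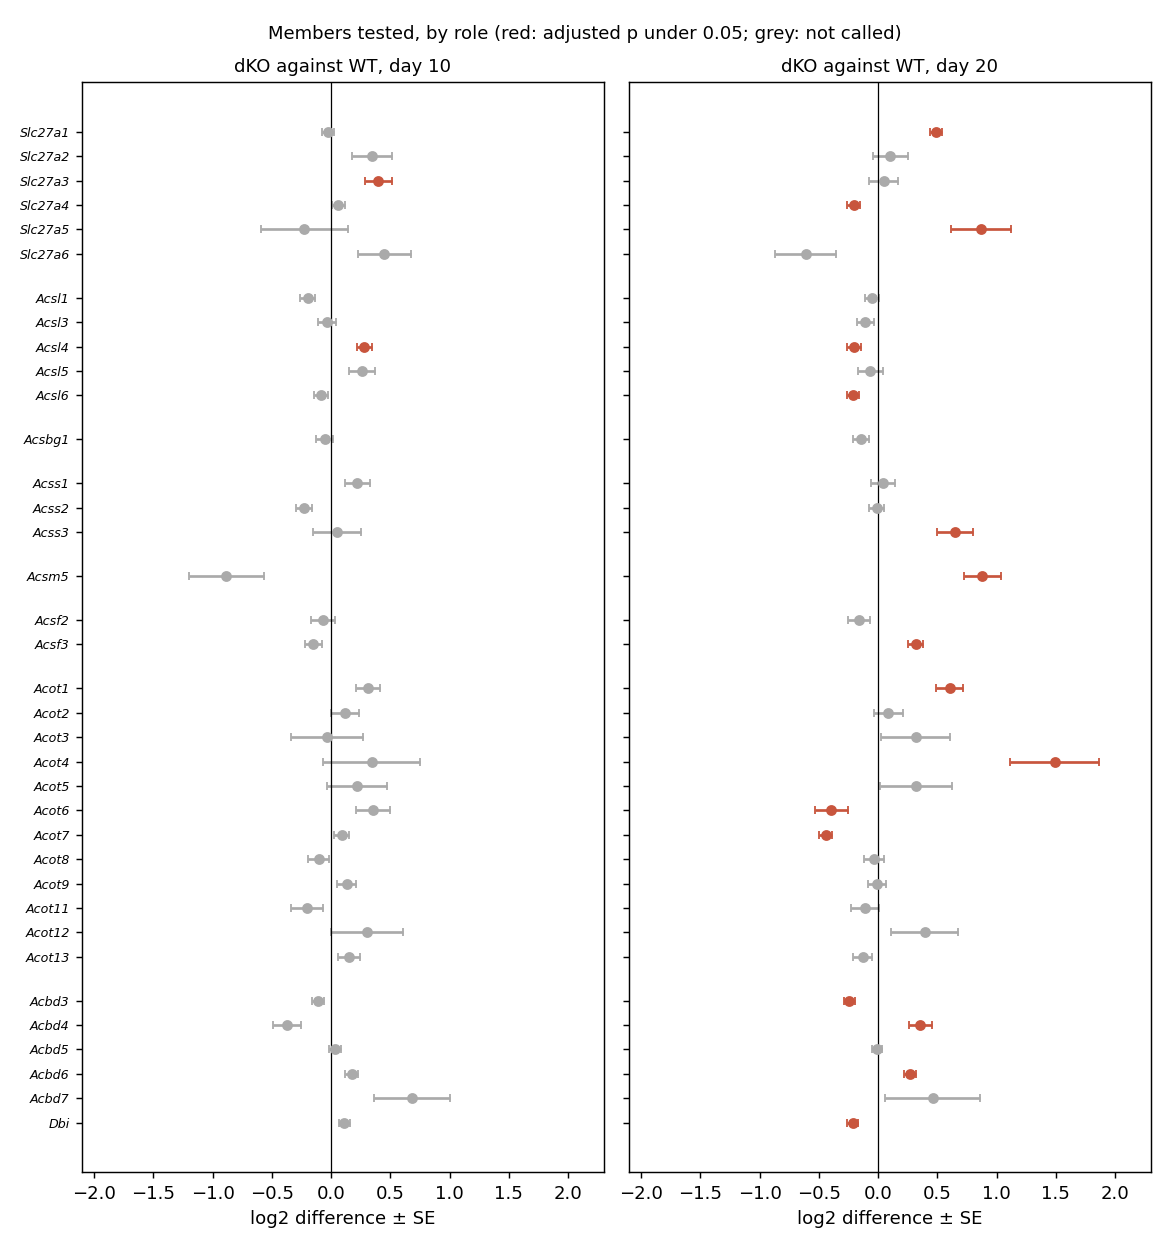
Log2 difference of dKO from WT (horizontal, ± SE) of the 36 tested members, grouped by role (vertical), at day 10 (left, 5 dKO and 6 WT libraries) and day 20 (right, 6 and 6). Red marks an adjusted p under 0.05: 2 members at day 10 and 16 at day 20, 9 to the right of 0 and 7 to the left.

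In bulk tissue, fewer cells of a type and less RNA per cell cannot be told apart, and markers of several cell types moved with genotype at day 20. Over all genes tested, 19.4% were called higher and 19.5% lower in dKO then. In dKO, 6 of 7 microglial markers fell (summed level 91.4 to 141 CPM against 159 to 190.5 CPM in WT), as did 5 of 6 endothelial markers (129.8 to 167 against 197 to 212 CPM) and 4 of 4 erythroid markers (71.8 to 121 against 295 to 623 CPM). Of 8 oligodendrocyte markers 3 fell (11990 to 15320 against 15580 to 20280 CPM), and of 8 astrocyte markers 2 rose and 2 fell (4485 to 5132 against 4948 to 5255 CPM). Mural markers gave 1 higher and 2 lower of 4 (83.5 to 99.1 against 134 to 175 CPM), oligodendrocyte precursor markers 1 higher and 1 lower of 3 (157 to 253 against 264 to 304 CPM), choroid plexus markers 3 lower of 6 (219 to 516 against 509.9 to 664 CPM) and ependymal markers 3 lower of 4 (13.3 to 21.5 against 15.5 to 26 CPM). Neuronal markers gave 1 lower of 6 (2423 to 2649 against 2671 to 2838 CPM), and none of 4 cerebellar neuron markers (831 to 978 against 741 to 1065 CPM) or of 2 tested liver markers (1.04 to 1.76 against 0.876 to 1.29 CPM over the 4 listed, with Alb and Serpina1a near 0) was called. Neuronal, astrocyte and oligodendrocyte markers were present in every library, as the tissue label has it. The part of these shifts in the members' differences was not tested.

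Among the fatty acid transport proteins, 2 of 6 were called higher and 1 lower at day 20. Slc27a1 (ENSMUSG00000031808, chr8:71568882-71587302, plus strand, positions in GRCm38 with GENCODE M21), a transporter with acyl-CoA synthetase activity, had the smallest p of any member. It was measured at 73.9, 80.3 and 88.3 CPM in WT at day 20 (lowest, median and highest) and at 106, 112 and 124 CPM in dKO. Every dKO library lay above every WT library. Slc27a1 had a log2 difference of 0.49 ± 0.049 SE, 1.40-fold higher, adjusted p = 1.06e-07. Slc27a1 at day 10 was at 65.4, 73.8 and 76.9 CPM in WT and at 71.5, 72.8, 64.2, 73.6 and 73.5 CPM in the 5 dKO libraries, 4 of which lay within the WT range and 1, female replicate 3, just below it. Slc27a1 had a log2 difference of -0.027 ± 0.053 SE, adjusted p = 0.798. The change of the difference between the days was 0.51 ± 0.072 SE, adjusted p = 2.9e-05.

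Slc27a4 (ENSMUSG00000059316, chr2:29802634-29817522, plus strand), which acts on long and very long chains at internal membranes, went the other way at day 20. It lay at 96.1, 105 and 107 CPM in WT and 85.7, 89.6 and 92.01 CPM in dKO, with no overlap. Slc27a4 had a log2 difference of -0.21 ± 0.052 SE, 1.15-fold lower, adjusted p = 0.00306. At day 10 the WT libraries were at 99.3, 106 and 115 CPM and the dKO libraries at 102, 103, 98.1, 110.3 and 136 CPM, the highest of which was male replicate 2. The interaction was -0.27 ± 0.076 SE, adjusted p = 0.0115, and without that library it was -0.17 with an adjusted p of 0.0891.

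The rest of this family was scarcer. Slc27a3 (ENSMUSG00000027932, chr3:90385239-90389938, minus strand), another family member with synthetase activity, was called in dKO at day 10. It lay then at 9.42, 11.8 and 14.95 CPM in WT and 12.4, 16.9, 15.6, 13.3 and 16.6 CPM in dKO, overlapping (log2 difference 0.40 ± 0.11 SE, 1.32-fold higher, adjusted p = 0.0441), and at day 20 at 4.51, 5.81 and 6.28 against 5.10, 5.44 and 7.11 CPM. Slc27a3 had a log2 difference of 0.046 ± 0.13 SE, adjusted p = 0.808. With only the groups compared in the fit, Slc27a3 was not called at day 10. The day 10 call was lost on leaving out 16 of 23 libraries in turn, with a log2 difference of 0.31 and an adjusted p of 0.359 without dKO male replicate 2. Slc27a6 (ENSMUSG00000024600), known mainly from heart, was near 1 CPM: 0.789, 0.926 and 1.24 CPM in WT and 1.58, 1.62, 1.58, 0.723 and 1.34 CPM in dKO at day 10, then 0.496, 0.726 and 1.18 and 0.317, 0.472 and 0.724 CPM at day 20. Its genotypes overlapped on both days and neither day alone was called, while the interaction was called (-1.06 ± 0.35 SE, adjusted p = 0.0249). That call was lost without any of 4 libraries: dKO male day 10 replicate 2 (log2 -0.79, adjusted p = 0.155), dKO male day 20 replicate 1 (-0.95, 0.052), WT male day 10 replicate 1 (-0.998, 0.0502) and WT male day 20 replicate 3 (-0.87, 0.0529). Slc27a5, the bile acid and very long-chain synthetase of liver, is named outside the naming rule because its mean was under 1 CPM on both days: it was called higher at day 20, at 0.393, 0.568 and 0.751 CPM in WT and 0.583, 0.932 and 2.13 CPM in dKO, with overlap. Slc27a5 had a log2 difference of 0.87 ± 0.25 SE, 1.82-fold higher, adjusted p = 0.00905. The sexes were unlike in value: the log2 difference was 1.64 ± 0.32 SE in males (adjusted p = 0.000376) and 0.097 ± 0.38 SE in females (adjusted p = 0.908). The genotype by sex interaction did not pass for Slc27a5 (unadjusted p = 0.00589, adjusted p = 0.157).

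Of 5 long-chain synthetases none was called higher at day 20 and 2 were lower. Acsl6 (ENSMUSG00000020333, chr11:54303798-54364756, plus strand), the form linked to docosahexaenoate in neurons, had 289, 299.8 and 307 CPM in WT and 241, 259.8 and 269 CPM in dKO, without overlap. Acsl6 had a log2 difference of -0.21 ± 0.054 SE, 1.16-fold lower, adjusted p = 0.00344. It had been at 191, 196 and 245 CPM in WT and 195, 172, 172, 202 and 221 CPM in dKO at day 10, where the genotypes overlapped. Acsl6 had a log2 difference of -0.082 ± 0.058 SE, adjusted p = 0.402. The interaction for Acsl6 did not pass the test (-0.13 ± 0.079 SE, adjusted p = 0.231).

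Acsl4 (ENSMUSG00000031278, chrX:142317993-142390535, minus strand), which prefers arachidonate, was called on both days in opposite directions. Its day 10 call was lost with only the groups compared in the fit. Acsl4 at day 10 lay at 96.99, 102 and 123 CPM in WT and 112, 124, 116, 122 and 153 CPM in dKO, so that the dKO libraries were mostly above WT but overlapped its highest library. Acsl4 had a log2 difference of 0.28 ± 0.063 SE, 1.21-fold higher, adjusted p = 0.0203. At day 20 it lay at 83.4, 85.2 and 95.03 CPM in WT and 64.3, 77.4 and 81.05 CPM in dKO, all dKO libraries below all WT libraries. Acsl4 had a log2 difference of -0.20 ± 0.06 SE, 1.15-fold lower, adjusted p = 0.0109. The interaction was -0.48 ± 0.087 SE, adjusted p = 0.000362. The day 10 call was lost without dKO male replicate 2 (log2 0.18, adjusted p = 0.299), dKO female replicate 2 (0.26, adjusted p = 0.0568) or WT male replicate 1 (0.25, adjusted p = 0.0727).

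Acsl3 (ENSMUSG00000032883, chr1:78657825-78707743, plus strand), found at the endoplasmic reticulum and lipid droplets, was the most abundant long-chain form per length and was not called: 211, 222 and 252 CPM in WT and 194, 205 and 248 CPM in dKO at day 20, with a 95% interval of the log2 difference from -0.25 to 0.034. Acsl3 at day 10 was at 142, 162 and 200.4 CPM in WT and 167, 132, 146, 169 and 179.6 CPM in dKO. Acsbg1 (ENSMUSG00000032281, chr9:54604877-54661870, minus strand), the bubblegum synthetase for very long chains, lay at 177, 179 and 184 CPM in WT and 149, 162 and 179 CPM in dKO at day 20, a difference that did not pass. Acsbg1 had a log2 difference of -0.14 ± 0.069 SE, adjusted p = 0.105. At day 10 it spread over 131, 142 and 184 CPM in WT and 144, 115, 118, 149 and 169 CPM in dKO. The highest WT value there is female replicate 3. Its summed oligodendrocyte markers (12340 CPM) stood above the 6095 to 8148 CPM of the other 5 WT libraries of that day. Its summed astrocyte markers did so too, at 4150 against 3148 to 3570 CPM. Its endothelial, mural and ependymal sums were also the highest of these libraries, and those of the other cell types were not. A link of these sums to Acsbg1 was not tested. The remaining 2 long-chain forms, Acsl1 and Acsl5, were not called on either day.

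Of the synthetases for short and medium chains and the Acsf family, 6 members were tested and 3 rose at day 20, 1 in each group. Acss3 (ENSMUSG00000035948, chr10:106933517-107123668, minus strand), a mitochondrial enzyme that favours propionate, lay at 4.04, 5.28 and 6.74 CPM in WT and 6.52, 7.45 and 10.6 CPM in dKO (log2 difference 0.65 ± 0.15 SE, 1.57-fold higher, adjusted p = 0.00168), with slight overlap. Acss3 at day 10 was at 2.70, 3.58 and 4.02 and 2.72, 4.44, 3.57, 3.78 and 3.12 CPM. Of its 50-base words 33.4% occur on the opposite strand in Ppfia2, so its value relies on the strand of the reads. Its acetate-activating relatives did not pass at day 20: mitochondrial Acss1 had a log2 difference of 0.043 and the cytosolic and nuclear Acss2 of -0.012 (95% interval -0.14 to 0.11).

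Acsm5 (ENSMUSG00000030972, chr7:119519463-119545551, plus strand), a mitochondrial medium-chain synthetase, had the greatest interaction of the members called for it. It was at 2.04, 2.48 and 2.67 CPM in WT and 3.29, 4.80 and 5.34 CPM in dKO at day 20, without overlap. Acsm5 had a log2 difference of 0.88 ± 0.16 SE, 1.84-fold higher, adjusted p = 0.000131. Acsm5 at day 10 was lower, at 0.516, 0.950 and 1.67 CPM in WT and 0.815, 0.683, 0.603, 0.556 and 0.391 CPM in dKO, and the difference there pointed downward without passing the test. Acsm5 had a log2 difference of -0.88 ± 0.31 SE, adjusted p = 0.0856. The interaction was 1.76 ± 0.35 SE, adjusted p = 0.000746. Of the 6 dKO libraries, 2 female ones lay at 3.34 and 3.29 CPM and the 4 others between 4.66 and 5.34 CPM.

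Acsf3 (ENSMUSG00000015016, chr8:122775486-122817880, plus strand), the mitochondrial malonyl-CoA synthetase, lay at 20.1, 22.1 and 22.5 CPM in WT and 22.2, 27.2 and 29.6 CPM in dKO at day 20; only the lowest dKO library fell within the WT range. Acsf3 had a log2 difference of 0.32 ± 0.065 SE, 1.25-fold higher, adjusted p = 0.000532. At day 10 WT had 17.7, 19.8 and 20.6 CPM and dKO 17.6, 14.6, 19.8, 18.4 and 17.02 CPM, with overlap (log2 difference -0.15 ± 0.073 SE, adjusted p = 0.199), and the interaction was 0.47 ± 0.10 SE, adjusted p = 0.00127. Acsf2, the other family member, was not called on either day. Of its 50-base words 33.3% also occur in the transcripts of Gm5540, and reads that match both equally are mostly not counted.

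**Figure D3:**
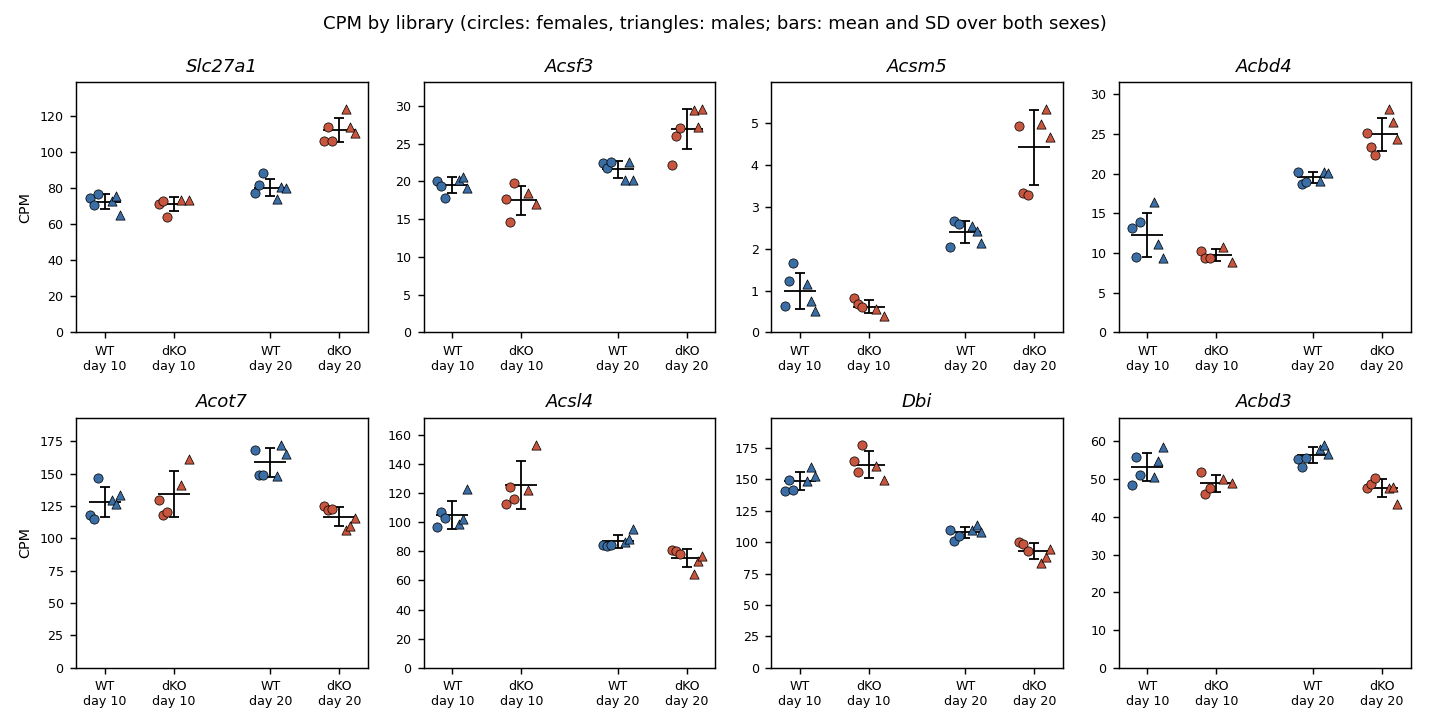
CPM (vertical, from 0) in each of the 23 libraries for 8 members, by genotype and day (horizontal); circles are females, triangles males, and bars the mean and SD over both sexes. At day 20 the dKO libraries of Slc27a1, Acsm5 and Acbd4 all lie above the WT libraries and those of Acot7, Acsl4, Dbi and Acbd3 all lie below, while at day 10 the genotypes overlap in all 8.

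Of 12 tested thioesterases 2 were called higher and 2 lower at day 20. Acot7 (ENSMUSG00000028937, chr4:152178134-152271855, plus strand), the cytosolic brain acyl-CoA hydrolase, is the most abundant of them per length. It lay at 148, 157 and 172 CPM in WT and 106, 119 and 125 CPM in dKO, so that the highest dKO library was below the lowest WT library. Acot7 had a log2 difference of -0.44 ± 0.058 SE, 1.36-fold lower, adjusted p = 3.11e-06. Acot7 at day 10 lay at 115, 128 and 146 CPM in WT and 129.9, 118, 120.4, 141 and 161 CPM in dKO, overlapping. Acot7 had a log2 difference of 0.089 ± 0.061 SE, adjusted p = 0.392. The interaction was -0.53 ± 0.084 SE, adjusted p = 9.31e-05. In WT the level rose from day 10 to day 20, whereas the dKO means were 134 ± 17.8 CPM (SD, n = 5) at day 10 and 117 ± 7.59 CPM (SD, n = 6) at day 20; the age change within dKO was not tested.

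Acot1 to Acot6 are close paralogs that lie within 123 kb on chromosome 12, in cytosol (Acot1), mitochondria (Acot2) and peroxisomes (the others). Acot1 (ENSMUSG00000072949, chr12:84009490-84018371, plus strand) and Acot2 (ENSMUSG00000021226, chr12:83987861-83993873, plus strand) share 85.65% of 1380 aligned coding positions, and 19.3% and 27.7% of the 50-base words of their transcripts also occur in other genes, chiefly in each other. Their longest identical coding stretch is 273 bases (coding bases 887 to 1159 of Acot1, exon 3 of 3, chr12:84017006-84017278, plus strand, GRCm38, GENCODE M21). It is shown because a read that lies wholly within it matches both genes equally.
Acot1 and Acot2, shared: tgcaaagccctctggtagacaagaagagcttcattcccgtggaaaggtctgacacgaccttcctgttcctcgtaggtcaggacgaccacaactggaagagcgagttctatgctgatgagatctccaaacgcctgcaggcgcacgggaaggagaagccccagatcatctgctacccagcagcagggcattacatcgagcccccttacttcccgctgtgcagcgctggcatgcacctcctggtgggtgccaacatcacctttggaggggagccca
Of the 2 genes, Acot1 was called at day 20 and Acot2 was not. The sequence before each start is shown, and a link of it to the calls was not tested. The stretches end just before the first exon in GENCODE, and capitals mark the only match to the core of the glucocorticoid response element, ACANNNTGT, in the Acot1 stretch (200 bases before the RefSeq start, 84009502); the Acot2 stretch holds none. Both come from RefSeq (GRCm38.p6, plus strand), chr12:84009252-84009489 for Acot1 and chr12:83987611-83987860 for Acot2.
Acot1, upstream: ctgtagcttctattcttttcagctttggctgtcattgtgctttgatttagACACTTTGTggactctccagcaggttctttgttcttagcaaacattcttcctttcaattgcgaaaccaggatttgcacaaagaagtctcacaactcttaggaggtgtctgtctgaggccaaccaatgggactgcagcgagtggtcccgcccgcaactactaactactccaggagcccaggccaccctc
Acot2, upstream: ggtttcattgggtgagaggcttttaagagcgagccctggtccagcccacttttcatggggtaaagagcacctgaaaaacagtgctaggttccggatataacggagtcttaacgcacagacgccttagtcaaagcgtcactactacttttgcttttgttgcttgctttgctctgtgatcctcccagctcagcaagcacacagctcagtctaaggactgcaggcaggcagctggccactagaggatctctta
A match describes letters and not a binding site, and no match says only that the letters are absent from the window. The core occurred in 4 of 45 windows of 300 bases (250 before to 50 after a start) of the 34 members matched in RefSeq, or 8.89% (Acot1, Acsl6, Acsm2 and Acss2), and in 6.85% of all 32851 such windows; it reads the same on both strands. The sterol response element TCACNCCAC, searched on both strands, was found in 1 member window (Acsl1) and in 1.24% of all windows. The repeat of AGGTCA with 1 base between the copies (DR1), known from PPAR binding, was in 0 member windows and 0.0396% of all, and AGGTCA alone in 9 of 45 member windows (20.0%) and 16.3% of all.

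Acot1, which hydrolyses long-chain acyl-CoA, was at 4.77, 5.17 and 5.97 CPM in WT and 6.98, 7.91 and 8.83 CPM in dKO at day 20, without overlap. Acot1 had a log2 difference of 0.60 ± 0.11 SE, 1.52-fold higher, adjusted p = 0.000163. Acot1 at day 10 was more abundant, at 10.5, 14.8 and 16.5 CPM in WT and 17.5, 21.7, 22.97, 14.9 and 14.2 CPM in dKO, where the difference over both sexes did not pass. Acot1 had a log2 difference of 0.31 ± 0.10 SE, adjusted p = 0.0649. Acot2 lay at 3.12, 3.47 and 3.91 CPM in WT and 3.07, 3.82 and 4.21 CPM in dKO at day 20. Acot2 had a log2 difference of 0.086 ± 0.12 SE, adjusted p = 0.619; 95% interval -0.15 to 0.33. Because of their shared stretch both values are uncertain, and the difference between the genes was not tested.

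Acot6 (ENSMUSG00000043487, chr12:84100654-84111349, plus strand), a peroxisomal form, lay at 4.66, 5.01 and 7.09 CPM in WT and 3.08, 3.90 and 5.07 CPM in dKO at day 20, with overlap. Acot6 had a log2 difference of -0.39 ± 0.14 SE, 1.31-fold lower, adjusted p = 0.0277. Acot6 at day 10 was at 3.51, 4.93 and 5.55 CPM in WT and 6.47, 4.53, 7.52, 5.51 and 6.75 CPM in dKO (log2 difference 0.35 ± 0.14 SE, adjusted p = 0.126), and the interaction was -0.75 ± 0.20 SE, adjusted p = 0.00774. The day 20 call was lost on leaving out any of 4 libraries, to -0.28 and an adjusted p of 0.113 without WT female replicate 2, to -0.33 and 0.0838 without dKO female replicate 2, to -0.34 and 0.0787 without dKO male replicate 1, and to -0.39 and 0.051 without WT male replicate 1. Acot4, also peroxisomal, falls outside the naming rule with means under 1 CPM. It was called higher at day 20, at 0.138, 0.183 and 0.332 CPM in WT and 0.272, 0.636 and 0.876 CPM in dKO (log2 difference 1.49 ± 0.37 SE, 2.81-fold higher, adjusted p = 0.00308), with overlap; with unstranded counts the log2 difference was 0.39 and the adjusted p 0.174, and an antisense transcript (4732463B04Rik) shares words with it. Acot3 and Acot5 were not called on either day (day 20 log2 0.32 and 0.32, both under 1 CPM). The other tested thioesterases, Acot8, Acot9, Acot11, Acot12 and Acot13, had day 20 log2 differences of -0.034, -0.01, -0.11, 0.39 and -0.13 and were not called on either day over both sexes. In males alone at day 20 Acot13 was called lower (log2 -0.32, adjusted p = 0.0319), a call lost without any of 5 male libraries of that day, all but dKO replicate 2 (adjusted p = 0.0551 to 0.161), while females gave 0.061 (adjusted p = 0.782). Acot9 shares 97.19% of coding positions with the untested Acot10.

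**Figure D4:**
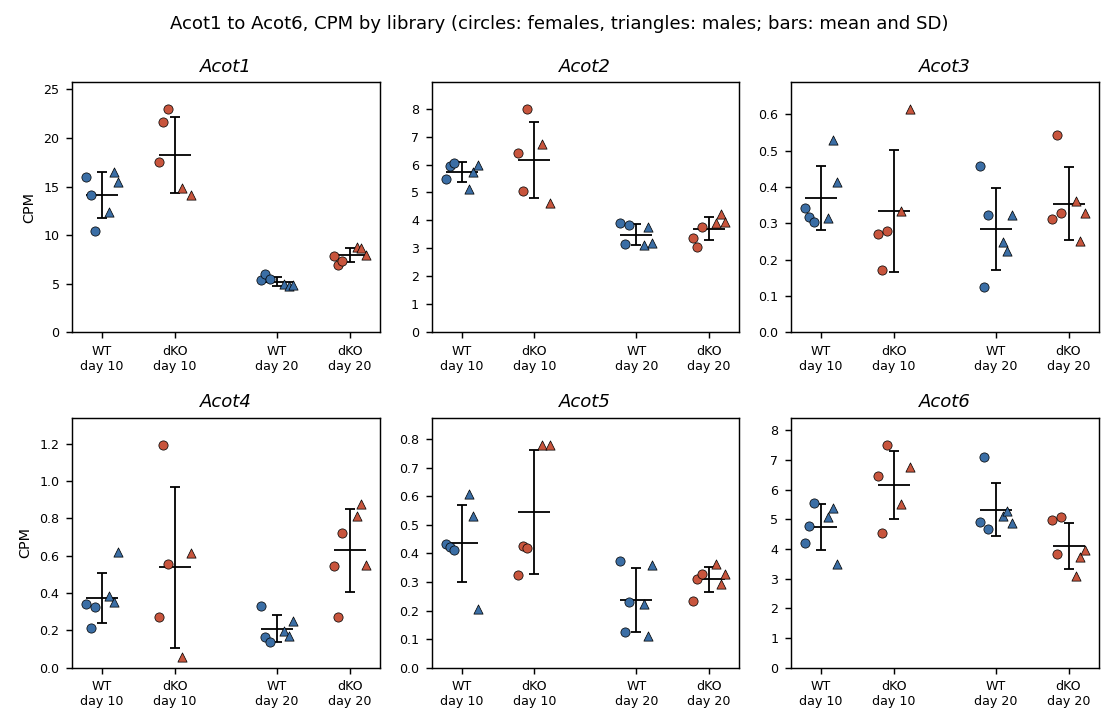
CPM (vertical, from 0) of the 6 neighbouring thioesterase genes Acot1 to Acot6 in each of the 23 libraries, by genotype and day (horizontal); circles are females, triangles males, bars the mean and SD. Acot1 separates the genotypes at day 20 (4.77 to 5.97 CPM in WT, 6.98 to 8.83 CPM in dKO), whereas the 5 others overlap.

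Of 6 acyl-CoA binding genes 2 were called higher and 2 lower at day 20. Dbi (ENSMUSG00000026385, chr1:120113280-120121078, minus strand), the cytosolic acyl-CoA binding protein, also known as diazepam binding inhibitor, lay at 101, 109 and 113 CPM in WT and 83.2, 93.5 and 101 CPM in dKO, without overlap. Dbi had a log2 difference of -0.22 ± 0.044 SE, 1.16-fold lower, adjusted p = 0.000457. Dbi at day 10 was higher in both genotypes, at 140.4, 149 and 160.2 CPM in WT and 165, 156, 178, 160.4 and 149.8 CPM in dKO, and the difference had the other sign without passing. Dbi had a log2 difference of 0.11 ± 0.046 SE, adjusted p = 0.128. The interaction was -0.33 ± 0.063 SE, adjusted p = 0.000651. Acbd3 (ENSMUSG00000026499, chr1:180726043-180754204, plus strand), a Golgi scaffold with an acyl-CoA binding domain, lay at 53.2, 56.1 and 59.2 CPM in WT and 43.3, 47.8 and 50.3 CPM in dKO at day 20, without overlap (log2 difference -0.24 ± 0.047 SE, 1.18-fold lower, adjusted p = 0.000311); at day 10 it was at 48.5, 52.9 and 58.5 and 52.01, 46.03, 47.7, 50.05 and 48.9 CPM, with overlap.

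Acbd4 (ENSMUSG00000056938, chr11:103101682-103112200, plus strand), which tethers peroxisomes to the endoplasmic reticulum, rose. It lay at 18.6, 19.5 and 20.2 CPM in WT and 22.4, 24.8 and 28.1 CPM in dKO at day 20, without overlap. Acbd4 had a log2 difference of 0.36 ± 0.10 SE, 1.28-fold higher, adjusted p = 0.00534. Acbd4 at day 10 was at 9.38, 12.1 and 16.4 CPM in WT and 10.3, 9.39, 9.37, 10.7 and 8.87 CPM in dKO, a difference of the other sign that did not pass (log2 difference -0.37 ± 0.12 SE, adjusted p = 0.0585), and the interaction was 0.73 ± 0.15 SE, adjusted p = 0.00119. Acbd6 (ENSMUSG00000033701, chr1:155558120-155691330, plus strand), whose protein binds long-chain acyl-CoA, lay at 28.6, 32.8 and 34.7 CPM in WT and 37.1, 39.3 and 41.2 CPM in dKO at day 20, without overlap. Acbd6 had a log2 difference of 0.27 ± 0.051 SE, 1.21-fold higher, adjusted p = 0.000209. Its day 10 values, 30.4, 32.6 and 33.7 CPM in WT and 36.96, 35.4, 36.1, 33.1 and 40.7 CPM in dKO, pointed the same way below the threshold. Acbd6 had a log2 difference of 0.17 ± 0.055 SE, adjusted p = 0.0586. Acbd5, a peroxisomal tether like Acbd4, was not called at day 20 (log2 -0.009, 95% interval -0.10 to 0.08), nor was the rare Acbd7.

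The day 10 calls depended on single libraries and on the fit shared with day 20. With only the day 10 groups in the fit, 0 members and 6 genes were called. Without dKO male replicate 1 or 2 that group holds 1 library, so its mean rests on that library alone. Leaving out dKO male replicate 2 reduced the members called from 2 to 0 and all genes called from 1254 to 16, and leaving out dKO male replicate 1 raised them to 9 and 4648. None was called without dKO female replicate 2 (210 genes in all) or WT male replicate 1 (66), 1 was called without dKO female replicate 3 (221), and 6 were called without dKO female replicate 1 (2205 in all) or WT male replicate 3 (2574). In dKO male replicate 2 the summed choroid plexus markers were at 9.43 CPM, against 252 to 615 CPM in the 10 other libraries of that day, and the cerebellar neuron markers at 179 CPM, against 282 to 1077 CPM. At day 10, 4 of 8 oligodendrocyte markers were called lower in dKO (4147 to 6483 against 6095 to 12340 CPM in sum) and 1 of 6 neuronal markers higher (1252 to 1810 against 1438 to 1886 CPM), while no marker of the other 10 lists was called by edgeR (at an unadjusted p under 0.05 were 3 cerebellar neuron markers, 2 astrocyte markers and 1 each of the precursor, microglial, choroid plexus and ependymal lists). The median log2 difference of the 6 neuronal markers was -0.15 at day 10, and 5 of them had an unadjusted p under 0.05 by edgeR. Whether tissue content bears on the members' day 10 values was not tested. With the shallow library added, 3 members were called (2 higher, 1 lower), Slc27a3 and Acsl4 among them at log2 differences of 0.39 and 0.27.

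Split by sex, 16 of 36 members were called in males at day 20 (9 higher, 7 lower), against 35.3% of all genes (17.8% higher, 17.5% lower), and 2 in females, Slc27a1 and Acot7, against 10.7%. In the main edgeR fit the genotype by sex interaction called 0 members and 0.0% of all genes at day 20. There, 6 members had an unadjusted p under 0.05. With only the day 20 groups in the fit, 1 member and 1091 genes were called. DESeq2 called 0 members and 347 genes. For the 5 members named here the adjusted p of that interaction in the main edgeR fit ran from 0.267 to 0.423. Slc27a1 lay at 77.4, 81.8 and 88.3 CPM in WT females and 106, 114 and 106 CPM in dKO females. Slc27a1 had a log2 difference of 0.40 ± 0.069 SE, adjusted p = 0.000638. In males it lay at 73.9, 80.6 and 80.03 CPM in WT and 124, 114 and 111 CPM in dKO (log2 difference 0.57 ± 0.069 SE, adjusted p = 1.74e-06), so neither sex had overlap. Acot7 went from 168, 149 and 149 CPM in WT females to 125, 122 and 123 CPM in dKO females (log2 difference -0.34 ± 0.081 SE, adjusted p = 0.00986), and from 148, 172 and 165 to 106, 109 and 116 CPM in males. Acot7 had a log2 difference of -0.55 ± 0.082 SE, adjusted p = 2.06e-05. The female call for Acot7 was lost without WT female replicate 1 (log2 -0.28, adjusted p = 0.078).

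The next members by p in males at day 20 were Acot1, Acbd6 and Dbi. Acot1 lay at 4.93, 4.77 and 4.87 CPM in WT males and 8.83, 8.72 and 8.01 CPM in dKO males (log2 difference 0.81 ± 0.15 SE, adjusted p = 0.000309), and the female values, 5.40, 5.96 and 5.45 against 7.81, 6.98 and 7.37 CPM, did not overlap either but were not called. Acot1 had a log2 difference of 0.40 ± 0.16 SE, adjusted p = 0.109. The male differences of Acbd6 and Dbi were 0.37 and -0.32 (adjusted p = 0.00035 and 0.000356), and the female ones 0.17 and -0.11 (adjusted p = 0.132 and 0.261). At day 10, 1 member was called in females, against 0.591% of all genes (0.291% higher): Acot1, at 15.99, 14.2 and 10.5 CPM in WT and 17.5, 21.7 and 22.97 CPM in dKO. Acot1 had a log2 difference of 0.62 ± 0.13 SE, adjusted p = 0.0447. That call was lost on leaving out any of 14 libraries or with only the groups compared, and the log2 difference in males was -0.00055. In males at day 10, with 2 dKO libraries, 0 members were called by edgeR, against 0.0139% of all genes, and 6 had an unadjusted p under 0.05. DESeq2 called 1 member there, and 572 genes in all. The sex interaction at day 10 called 0 members and 0.0% of genes, with 10 members at an unadjusted p under 0.05 and 0 members called by DESeq2.

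In WT alone, 19 of 36 members changed from day 10 to day 20, 13 rising and 6 falling, against 51.4% of all genes (26.1% and 25.3%); this comparison shares its WT libraries with the genotype comparisons. The greatest rise was in Acot11 (ENSMUSG00000034853, chr4:106744555-106804998, minus strand), a thioesterase with a lipid-binding START domain, from 24.8, 28.3 and 44.4 to 64.8, 70.5 and 78.8 CPM without overlap. Acot11 had a log2 difference of 1.21 ± 0.12 SE, adjusted p = 1.16e-07. Acsm5 (1.17), Acss3 (0.65), Acbd4 (0.63) and the very long-chain synthetase Slc27a2 (0.54) followed, by their log2 differences, with adjusted p from 1.61e-05 to 0.00516. The greatest fall was in Acot1, with the values given above for WT, all day 20 libraries below all day 10 libraries. Acot1 had a log2 difference of -1.42 ± 0.10 SE, 2.67-fold lower, adjusted p = 2.61e-10. Slc27a3 fell by 1.02, Acot5 by 0.94, Acot2 by 0.71 and Dbi by 0.46 on the log2 scale. Acsm5, Acss3, Acbd4 and Slc27a1 were higher in older WT and higher in dKO than WT at day 20, whereas Acot7 and Acsl6 rose with age in WT and were lower in dKO at day 20. Dbi and Acsl4 fell with age and were lower in dKO, and Acot1 fell with age and was higher in dKO. The age call of Slc27a1 (log2 0.14, adjusted p = 0.0212) was lost without any of 4 libraries: dKO male day 10 replicate 2 (0.12, adjusted p = 0.0504), WT female day 10 replicate 2 (0.12, 0.056), WT male day 10 replicate 3 (0.11, 0.0653) and WT female day 20 replicate 3 (0.11, 0.0698).

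Other genes that make, carry or use acyl-CoA were read from lists of pathway genes, each described at day 20 by up to 4 called genes with their log2 differences. The lists were made with earlier results of these data known, so their counts are a description and no test of a pathway. Over all genes tested, 19.4% were called higher and 19.5% lower at day 20, and 5.79% were called at day 10. Of 15 tested enzymes acting on other acyl thioesters, 2 were higher and 7 lower in dKO (median log2 -0.15), among them Hibch (-0.38), Them4 (-0.33), Nudt7 (-0.67) and Aacs (-0.24); Them4 is a thioesterase, Nudt7 a peroxisomal CoA diphosphatase, Hibch a hydrolase of valine breakdown and Aacs the acetoacetyl-CoA synthetase. Of 16 carnitine transfer and fatty acid carrier genes, 3 were higher and 5 lower (median -0.07): the lipid transporter Mfsd2a (0.64) rose, and the fatty acid binding proteins Fabp7 (-1.40), Fabp5 (-0.33) and Fabp3 (-0.26) fell. Of 13 PPAR-alpha target genes, which answer to a fatty acid sensing receptor, 4 were higher and 3 lower (median 0.05), with Angptl4 (1.81) and Pdk4 (1.90) higher and Cat (-0.48) lower. Of 16 acyltransferase genes that use acyl-CoA for glycerolipids and cholesterol esters, 3 were higher and 5 lower (median 0.01), with Mboat1 (-1.34), Agpat1 (-0.34), Soat1 (-0.30) and Agpat4 (-0.40) all lower. Of 14 SREBP target genes, which respond to sterol and lipid demand, 2 were higher and 10 lower (median -0.30), with Elovl6 (-0.74), Hmgcs1 (-0.84), Sqle (-0.61) and Scd2 (-0.47) lower. The adjusted p of the genes named ran from 5.78e-09 to 0.00533. At day 10 the lists gave 1 call each for the carriers and the acyltransferases, both higher, and 0 for the other 3 lists by edgeR, where 5 thioester enzymes, 0 PPAR-alpha targets and 3 SREBP targets had an unadjusted p under 0.05.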

How the data were processed

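Gene counts of 24 stranded mRNA libraries (TruSeq Stranded mRNA, per the labels' protocols) were used. The authors deposited raw counts per gene, 1 table a library with 3 columns of counts (unstranded and either strand), which were not normalized. STAR 2.5.2b, HTSeq and GRCm38.p5 are named in the submitters' processing notes; which tool counted and on which annotation is not given in the sources used here. Column 4, the reverse strand, was taken; the forward strand held 5.22 to 7.46% of its counts. The 4 entries that name no gene were left out of library sizes (no feature 41.7 to 47.5% of reads, unmapped 7.65 to 11.0%, multimapping 4.77 to 5.94%, ambiguous 0.589 to 1.05%), so reads shared by close paralogs are mostly not counted. GENCODE M21 matched 50462 of 50686 gene IDs and left 224 unmatched.

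The 23 libraries with at least 1000000 gene counts entered 1 fit over the 8 groups of genotype, sex and day in edgeR 4.0.16 (R 4.3.3; filterByExpr, TMM scaling, robust glmQLFit with its current dispersion estimate, glmQLFTest), with Benjamini-Hochberg adjustment over 21657 genes and a threshold of 0.05. Both-sex differences weight the sexes equally. CPM are TMM-scaled, and TPM were computed from the summed exon length of each gene. The procedure was run on simulated counts, with an outcome not given here. Each gene had the same spread in all groups, so unequal scatter between groups was not covered. No 2 libraries held identical counts. Members with a call at day 20, day 10 or in the interaction and a mean of at least 1 CPM on a day were described in full, with the 5 most abundant per length; for age in WT the 5 greatest rises and falls, for the sexes up to 5 called members by p, and for each pathway list up to 4 called genes by p were named, 1 of which is not reported here. The members and lists were chosen with earlier results of these data known. Alternatives were all 24 libraries, RLE scaling, no or a stricter filter (1 CPM), unstranded counts, only the groups compared, DESeq2 1.42.0, each library left out in turn and, chosen after seeing the data, edgeR's earlier dispersion estimate.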

Additional observations from a re-analysis of the deposited data

Results flagged for a closer look

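Of 144 sets of 5 or 6 libraries (36 members in 4 groups), 10 held a highest or lowest library that stood apart from its neighbours by Dixon's test. Chance flags about 1 set in 20. In WT at day 10, female replicate 3 was highest for Acsbg1 (183.5 CPM, next 149 CPM) and for Acot11 (44.4 CPM, next 30.1 CPM), and male replicate 3 was highest for Acsl4 (123 CPM, next 107 CPM). In dKO at day 10, male replicate 2 was highest for Slc27a2 (12.2 CPM, next 6.08 CPM) and for Acsl4 (153 CPM, next 124 CPM), and female replicate 3 was lowest for Slc27a1 (64.2 CPM, next 71.5 CPM) and for Acsf2 (8.35 CPM, next 11.1 CPM). At day 20, dKO male replicate 3 was lowest for Acbd3 (43.3 CPM, next 47.7 CPM), dKO female replicate 1 was highest for Acsl5 (28.3 CPM, next 21.6 CPM) and WT female replicate 2 was highest for Acot6 (7.09 CPM, next 5.28 CPM).

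The difference between genotypes changed between the days, by the interaction test in edgeR, for 10 members. It moved upward in dKO for Acsm5 (log2 1.76), Acbd4 (0.73), Slc27a1 (0.51) and Acsf3 (0.47). It moved downward for Slc27a6 (-1.06), Acot6 (-0.75), Acot7 (-0.53), Acsl4 (-0.48), Dbi (-0.33) and Slc27a4 (-0.27).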

How the results depend on the processing

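No paired analysis was possible because the labels carry no replicate numbers; those used here only name libraries, in accession order. No result reversed. At day 20 over both sexes, members called stayed at 15 to 17 and all genes called at 7312 to 9033 on leaving out 1 library. Only the groups compared gave 0 members and 6 genes at day 10, 7 members and 4010 genes in females at day 20, 0 and 11 in females at day 10, 0 genes in males at day 10, and 1 member and 1091 genes for the sex interaction at day 20. DESeq2 gave 7 members and 2105 genes at day 10, 6 and 789 in females at day 10, 1 and 572 in males at day 10, and 347 genes for the sex interaction at day 20. No filter gave 608 genes at day 10, 51 in males at day 10 and 30 for the sex interaction at day 20. The stricter filter gave 4 members at day 10 and 5 genes in males at day 10. The earlier dispersion estimate gave 1 member at day 10 and 69 genes in females at day 10, and all 24 libraries gave 24 genes in males at day 10. Leaving out 1 library in turn, members called ranged from 0 to 9 at day 10, 0 to 7 in females at day 10, 0 to 10 in males at day 10, 1 to 4 in females at day 20 and 0 to 3 for the sex interaction at day 10. Genes called ranged from 16 to 4648 at day 10, 4 to 1459 in females at day 10, 2 to 4484 in males at day 10, 1110 to 2812 in females at day 20, 0 to 2062 for the sex interaction at day 10 and 0 to 145 for it at day 20. The fits without dKO male day 10 replicate 1 or 2 leave 1 library in that group. The cause of these shifts in calls was not tested. Of 66 log2 differences of named members, 5 lost their call under an alternative other than a left-out library: Acot4 at day 20 and in males with unstranded counts (0.39 and 0.73), Acsl4 (0.27) and Slc27a3 (0.38) at day 10 and Acot1 in females at day 10 with only the groups compared. Slc27a3 at day 10 also lost its call with no filter and with the earlier dispersion estimate (adjusted p = 0.0518 and 0.0585). The 7 tested members under 1 CPM are limited by depth.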
